A study of Rosa hybrid cultivar with 39 samples.

Results

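The genes described here are those whose average expression in rose petals was lowered by brassinosteroid and by none of the other 8 treatments given in solution. They are 245 of 30208 gene identifiers and 2.78% of the 8807 that reached an FPKM of at least 5 in water. FPKM counts sequenced fragments relative to transcript length and to the number of mapped fragments in the library. A gene was taken when its log2 ratio of BR over H2O, computed on FPKM plus 1, was -1 or lower, and when the ratio stayed between -1 and 1 in each of NAA, 2,4-D, 6-BA, ABA, GA, JA, SA and AgNO3. The members were thus chosen by their measured ratios to H2O. Values in BR and the limits in the 8 other treatments are given as a description, with no test.

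The libraries came from outer petals of cut 'Samantha' flowers, a red hybrid tea rose, harvested at opening stage 2. Stems stood for 24 h in deionized water (H2O) or in a solution of 5.0 µM epibrassinolide (BR), 100 µM 1-naphthaleneacetic acid (NAA), 100 µM 2,4-dichlorophenoxyacetic acid (2,4-D), 100 µM 6-benzylaminopurine (6-BA), 100 µM abscisic acid (ABA), 80 µM gibberellic acid (GA), 50 µM jasmonic acid (JA), 100 µM salicylic acid (SA) or 80 µM silver nitrate (AgNO3). Other flowers were held for 24 h in regular air (ET-CK) or in 1-methylcyclopropene at 2 µL per L (1-MCP), which blocks ethylene perception. Each condition had 3 replicates of 4 flowers, but the values used here are 1 average per condition, so no spread between replicates, no test and no counting depth can be attached to any value below. The ethylene condition was not analysed here, because the same values were deposited for ethylene and for air. They are called ET-CK here because their column is named for air, but which of the treatments they come from cannot be told from them, and this holds for every ET-CK value below. In bulk petals, fewer cells of a type and less RNA per cell cannot be told apart. The genes carry identifiers without names or descriptions, so their functions, promoters and proteins are not described here. Nor could petal or other tissue markers be looked up.

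Brassinosteroids are plant steroid hormones. They bind a receptor kinase at the cell surface, which switches off an inhibitory kinase in the cell and lets a pair of related transcription factors enter the nucleus. These factors activate genes of cell expansion and repress others, among which are genes that make the hormone itself, so that the pathway limits its own supply. The hormone is best known for promoting the expansion of cells, petal cells included.

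In H2O the FPKM of the 245 genes ran from 5.05 to 2293 with a median of 35.2, against a median of 22.4 over the 8807 genes that could be chosen. Over the 671 genes at least 2-fold lower in BR the median in H2O was 34.0. In BR the FPKM of the 245 ran from 0.178 to 1074 with a median of 11.1. The log2 ratio of BR over H2O had a median of -1.26 and quartiles of -1.55 and -1.09. The changes were thus mostly close to the limit. Only 32 genes were lowered at least 4-fold and 3 at least 8-fold, while 66 lay between -1.1 and -1. Over all genes that could be chosen, 671 were at least 2-fold lower in BR than in H2O, which is 7.62%. The rule uses this same comparison, so nothing can be read from all 245 being among them. In the other direction 505 genes, or 5.73%, were at least 2-fold higher in BR, and by the rule none of them is a member. The nearest genes inside the limit were LOC112197312 at 163 in H2O and 80.7 in BR, LOC112176300 at 5.32 and 2.15, and LOC112166764 at 136 and 67.1. The nearest outside were LOC112172802 at 6.56 and 2.78, LOC112181509 at 9.22 and 4.11, and LOC112202516 at 15.7 and 7.40. All 6 ratios lay very close to -1, so membership at the limit turns on small differences.

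**Figure D1:**
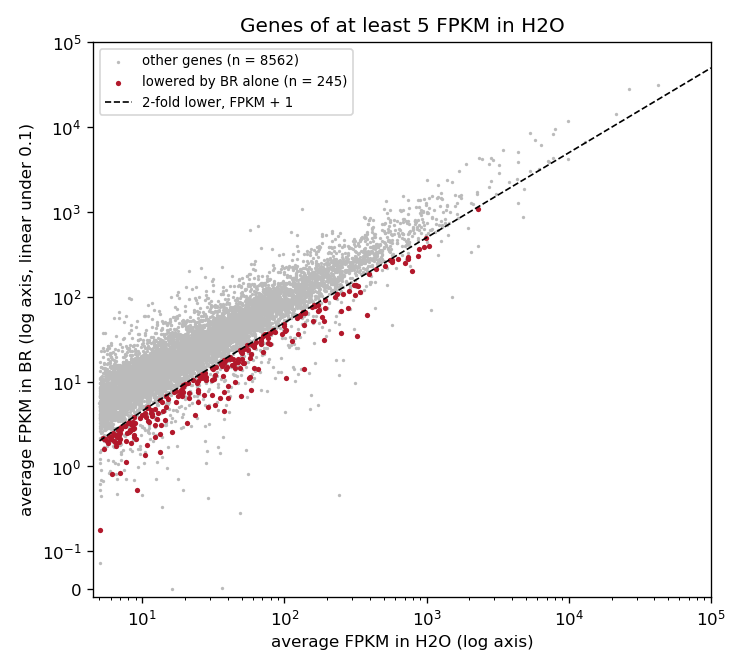
Average FPKM in H2O (horizontal, log axis) and in BR (vertical, log axis, linear under 0.1) of the genes of at least 5 FPKM in H2O, with the 245 genes lowered by BR alone in red, the others in grey and the 2-fold limit dashed. The red points lie under the dashed line over the whole range of expression, most of them close to it, and grey points under the line are genes that also passed 2-fold in another treatment.

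LOC112197838, with the lowest ratio, was at 137 FPKM in H2O, 14.2 in BR, between 131 in ABA and 232 in SA in the 8 other treatments, 122 in ET-CK and 144 in 1-MCP. Its log2 ratio of BR over H2O was -3.18. All conditions but BR thus lay within 2-fold of H2O, the gas conditions included. LOC112195946 was at 323 in H2O, 34.8 in BR, from 274 in SA to 582 in 6-BA in the other treatments, 316 in ET-CK and 375 in 1-MCP. It had the same rounded ratio of -3.18 at a higher level. LOC112197925 (NC_037091.1, 50856795 to 50857575) reached 102 in H2O, 11.1 in BR, from 86.3 in AgNO3 to 196 in 6-BA, 53.7 in ET-CK and 105 in 1-MCP. LOC112195963 (NC_037091.1, 50858091 to 50858812) stood at 383 in H2O, 61.8 in BR, from 373 in ABA to 628 in 6-BA, 368 in ET-CK and 504 in 1-MCP. These neighbours shared the decrease in BR, with log2 ratios of -3.09 and -2.61.

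LOC112196806 (NC_037091.1, 27405464 to 27406604) had 37.7 in H2O and 4.52 in BR, and no other treatment in solution was under the 42.1 of GA. In the gas conditions it was lower, at 8.55 in ET-CK and 23.2 in 1-MCP. LOC112175334 (NC_037094.1, 13868317 to 13880535) showed 9.25 in H2O, 0.527 in BR, from 5.14 in GA to 18.2 in 6-BA, 17.9 in ET-CK and 14.5 in 1-MCP. It was 1 of 4 members under 1 FPKM in BR, where adding 1 to the FPKM understates a change. LOC112190204 (NC_037089.1, 10345649 to 10347608) measured 250.2 in H2O, 37.5 in BR, 149 in AgNO3, its lowest other treatment, and 465 in ABA, its highest. LOC112202850 (NC_037092.1, 42101314 to 42106494) reached 13.3 in H2O, 1.49 in BR and from 8.78 in GA to 20.1 in 6-BA. LOC112201361 (NC_037092.1, 6854069 to 6855160) stood at 10.5 in H2O, 1.36 in BR and from 6.02 in JA to 16.8 in 6-BA. LOC112193919 (NC_037090.1, 18589877 to 18592867) had 35.2 in H2O, 6.43 in BR and from 23.5 in JA to 69.4 in 6-BA, just short of the 2-fold limit above H2O. For the last 3 genes 6-BA was the highest and BR the lowest condition in solution. LOC112192999 (NC_037090.1, 627656 to 629888) was the member with the lowest level in BR, at 0.178 against 5.05 in H2O, with 2.98 in JA and 10.5 in SA as the ends of the other treatments.

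Among the 20 lowest members, all 20 were higher in NAA than in H2O and 19 higher in 6-BA. A like pattern held for the 32 members lowered at least 4-fold, of which 31 were above H2O in NAA and 31 in 6-BA, with median log2 ratios of 0.28 and 0.63. Their medians in GA, JA, SA and AgNO3 were 0.03, -0.08, 0.23 and 0.05. The 213 members lowered by less had medians of -0.58, -0.51, -0.39 and -0.42 in these 4 treatments, -0.09 in NAA and 0.03 in 6-BA. In solution the medians of the members lowered most by BR thus stayed close to H2O or above it, and the remaining members were mostly under H2O in GA, JA, SA and AgNO3 as well. In the gas conditions both sets had medians under H2O, -0.46 and -0.43 in ET-CK and -0.24 and -0.36 in 1-MCP. Of the 32 members 6 were above H2O in ET-CK and 13 in 1-MCP. Of all genes that could be chosen, 53.3% were under H2O in ET-CK and 52.4% in 1-MCP. All these ratios share the H2O average. A low H2O value raises every ratio of a gene at once, and a high one lowers them. What part the single H2O average had in the split was not tested.

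**Figure D2:**
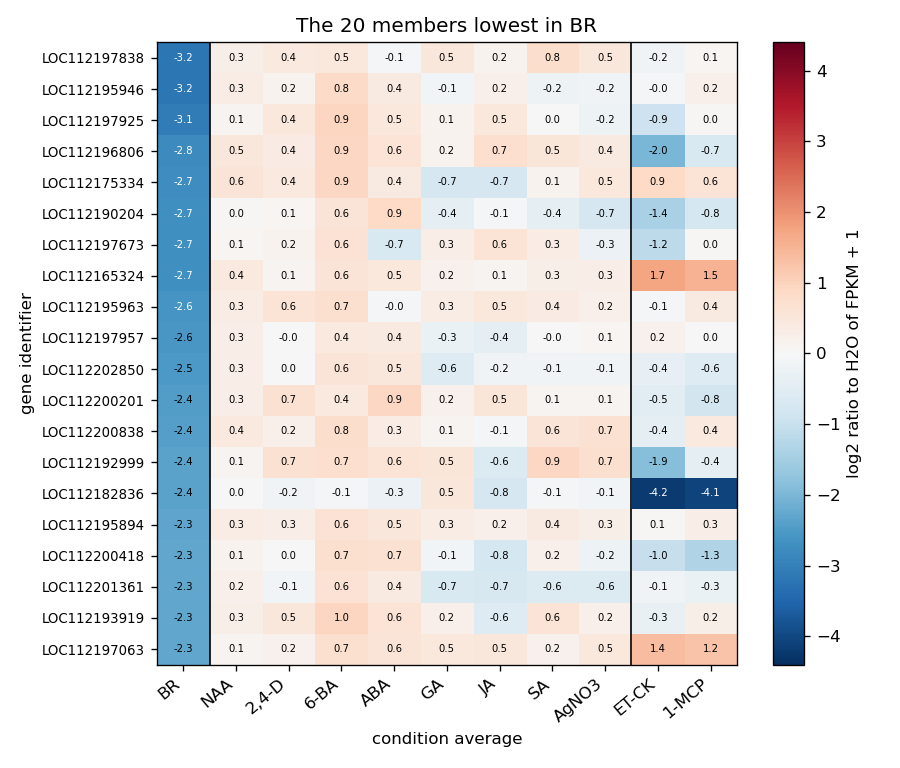
Log2 ratio to H2O of FPKM plus 1 for the 20 members with the lowest ratio in BR (rows, by ratio in BR) in 11 conditions (columns), with BR left of the first line and the gas conditions right of the second. The BR column is blue throughout, from -3.18 to -2.28. The 6-BA column is above 0 for 19 of the 20 genes, where 51.2% of all genes that could be chosen were under H2O. The gas columns differ between genes, from -4.20 in ET-CK for LOC112182836 to 1.75 for LOC112165324.

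Of the 20 lowest members 12 lay on NC_037091.1, among them 7 of the 10 lowest. Of the 8807 genes that could be chosen, 1192 lay on this sequence. Over the genome this sequence held 43 of the 245 members, 3.61% of its 1192 genes that could be chosen, close to the 3.72% of NC_037092.1 and above the 1.95% of NC_037090.1. A stretch of 1572 kb of NC_037091.1, from 49286866 to 50858812, held 8 of the 20 lowest. Its first 269 kb, up to 49555401, held 21 genes of at least 5 FPKM in H2O, of which 13, or 61.9%, were at least 2-fold lower in BR and 7 were members. None of the next 22 such genes was at least 2-fold lower, up to LOC112197925 and LOC112195963 at the far end. Over the whole sequence 8.22% of the genes of at least 5 FPKM in H2O were at least 2-fold lower in BR. The stretch was singled out after its values were seen, and its ends were set by members.

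The first locus of the stretch, from 49286866 to 49361273, was deposited as 1 locus for 8 identifiers. Of these, 4 were members, namely LOC112197838, LOC112195946, LOC112197957 and LOC112195894. LOC112197957 was at 190.0 in H2O, 31.3 in BR, from 144 in JA to 257 in 6-BA, 219 in ET-CK and 192 in 1-MCP. LOC112195894 was at 28.9 in H2O, 5.04 in BR, from 34.1 in JA to 45.4 in 6-BA, 30.3 in ET-CK and 35.8 in 1-MCP. None of these 4 genes was 2-fold away from H2O in either gas condition, which the rule does not use. That they stayed within 2-fold of H2O in the other treatments, and that other lowered genes of the locus did not, follows from the rule. LOC112199856 went from 48.4 to 0.280 in BR, was also at least 2-fold lower in 7 of the 8 other treatments and so is no member. LOC112200569 went from 45.0 in H2O to 13.7 in BR but was at 225 in 2,4-D and 453 in ET-CK, and was at least 2-fold higher in 6 of the 8. The part that the division of reads between genes of 1 locus had in these values was not tested.

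The second locus of the stretch, from 49516124 to 49538859, held the members LOC112200838 and LOC112201083. LOC112200838 was at 32.6 in H2O, 5.30 in BR and from 30.4 in JA to 55.8 in 6-BA. LOC112201083 was at 189 in H2O, 52.0 in BR and from 210.0 in JA to 292 in 6-BA. In both genes the lowest of the other treatments, JA, was close to H2O. LOC112200495 and LOC112200627, also in this locus, had log2 ratios of -1.78 and -2.04 in BR and were left out because each was at least 2-fold higher in 1 other treatment, AgNO3 for the former, at 72.1 against 34.2 in H2O, and ABA for the latter, at 257 against 116. LOC112197673, from 49554642 to 49555401, was at 57.8 in H2O, 8.06 in BR, from 36.0 in ABA to 89.9 in 6-BA, 25.2 in ET-CK and 59.8 in 1-MCP.

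**Figure D3:**
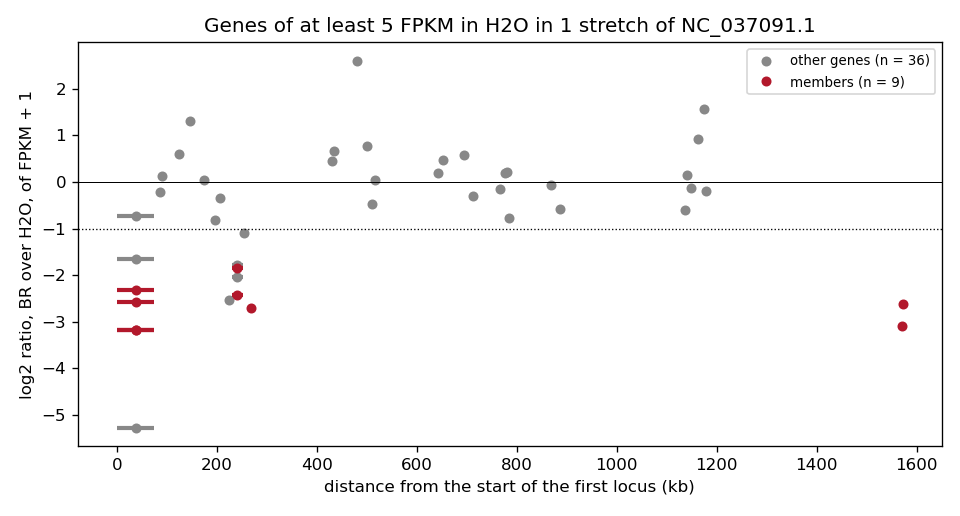
Log2 ratio of BR over H2O of FPKM plus 1 (vertical) for 45 genes of at least 5 FPKM in H2O along 1572 kb of NC_037091.1, by distance in kb from the start of the first locus (horizontal), with members in red, other genes in grey, bars spanning each deposited locus and the 2-fold limit dotted. The 13 lowered genes of the first 269 kb lie on the left among 8 that were not lowered, the 22 genes after them stay above the limit, and LOC112197925 and LOC112195963 are the red points on the far right.

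Over the genome 44 of the 245 members, or 18.0%, those of the stretch included, lay within 100 kb of another member, in 19 groups of 2 to 4. A member lay as near to 14.4% of the other genes of at least 5 FPKM in H2O and to 19.2% of the other genes at least 2-fold lower in BR, so closeness to a member was about as frequent among lowered genes outside the set. On NC_037092.1, LOC112165324 (24640030 to 24644996), LOC112165326 (24645553 to 24647255) and LOC112166868 (24649118 to 24650762) followed each other, and no other gene of at least 5 FPKM in H2O lay between them. LOC112165324 was at 49.6 in H2O, 6.84 in BR, from 54.1 in JA to 73.7 in 6-BA, 169 in ET-CK and 144 in 1-MCP. LOC112165326 was at 30.9 in H2O, 7.0 in BR, from 39.3 in 2,4-D to 58.1 in ABA, 77.6 in ET-CK and 88.9 in 1-MCP. Both were more than 2-fold higher in gas-held petals than in H2O. LOC112166868, the most abundant of the 3, was at 138 in H2O, 47.1 in BR, 122 in ET-CK and 169 in 1-MCP, without that increase.

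A further group lay on NC_037091.1 from 64424933 to 64552079, with 4 members among 12 genes of at least 5 FPKM in H2O and no other lowered gene. LOC112200201 was at 39.8 in H2O, 6.48 in BR and from 43.2 in AgNO3 to 76.5 in ABA. LOC112200418 and LOC112200417, which follow each other from 64547269 to 64552079, were at 16.2 and 37.4 in H2O and at 2.53 and 7.51 in BR. LOC112199908 was at 571 in H2O and 260.4 in BR. The 8 genes between them had log2 ratios in BR from -0.87 to 0.48, so the decrease did not extend over the group as a block. On NC_037094.1, LOC112175429 (22067573 to 22073209) and LOC112175428 (22073351 to 22075041) were at 12.2 and 13.5 in H2O and at 3.11 and 3.07 in BR. Other adjoining pairs had ratios nearer the limit. LOC112178769 and LOC112195757 on NC_037088.1 had ratios of -1.59 and -1.35, LOC112192186 and LOC112193656 on NC_037090.1 of -1.60 and -1.16, and LOC112186643 and LOC112186644 on NC_037089.1 of -1.41 and -1.07. LOC112193359 and LOC112184713 differed more, at -2.13 and -1.23, and were listed under 1 locus of NC_037088.1 with 8 identifiers. In all, 49 members, or 20%, came from loci with several identifiers, against 14.1% of all genes that could be chosen.

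How far the decrease belonged to BR alone varied among the members. BR was at least 2-fold under the lowest of the 8 other treatments for 70 of the 245 members, or 28.6%, against 1.90% of all genes that could be chosen. The rule used both BR and the 8 treatments, so nothing is read from this difference. The 70 comprise all 32 members lowered at least 4-fold, as the limits require, and 38 others. LOC112165577 (NC_037092.1, 10831467 to 10861081) combined a modest ratio to H2O with a wide gap. It was at 28.0 in H2O and 10.5 in BR, a log2 ratio of -1.33, but all 8 other treatments lay between the 46.4 of NAA and the 54.0 of 6-BA. It was named after its values were seen. At the other end, 31 members had BR less than 0.2 on the log2 scale under the next treatment. LOC112173927 was at 995 in H2O, 494 in BR and 507 in SA, so that BR lay just past the limit and SA just short of it. The lowest treatment after BR was JA for 83 members, GA for 67, AgNO3 for 42 and SA for 33. It was ABA for 11, NAA for 6, 2,4-D for 3 and never 6-BA. Over all genes that could be chosen, 9.47% were at least 1.5-fold lower in JA, 13.5% in GA, 14.0% in AgNO3 and 15.7% in SA. In 6-BA, NAA, 2,4-D and ABA these were 1.21% to 6.79%. Among JA, GA, AgNO3 and SA the counts of members ran opposite to these shares. The rule bounds all 8 treatments against H2O, so nothing particular to the members is read from the order of these counts. With the limit for the other treatments at 0.5 on the log2 scale in place of 1, only 23 of the 245 would remain.

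**Figure D4:**
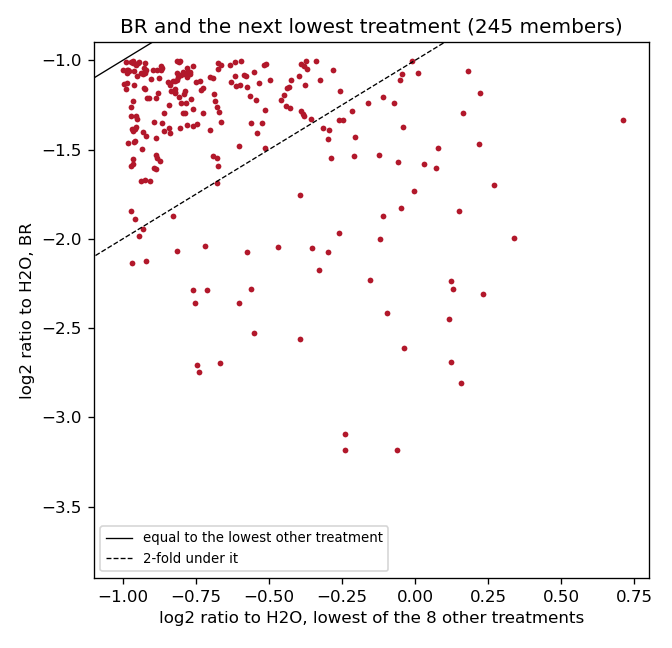
Log2 ratio of BR over H2O (vertical) against the lowest log2 ratio to H2O among the 8 other treatments (horizontal) for the 245 members, with a solid line where both are equal and a dashed line where BR is 2-fold under the other. The 70 points on or under the dashed line have BR at least 2-fold under each of the 8 other treatments in solution. The dense group at the upper left has a second treatment nearly as low. The gas conditions are not shown.

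GA, JA, SA and AgNO3 lay between H2O and BR for many members. The median log2 ratio to H2O was -0.50 in GA, -0.49 in JA, -0.33 in SA and -0.31 in AgNO3, where the medians over all genes that could be chosen were 0.01, 0.01, -0.04 and -0.02. In GA 110 members, or 44.9%, were at least 1.5-fold lower than in H2O, against 13.5% of all such genes. In JA these were 101 members, or 41.2%, against 9.47%, in SA 78, or 31.8%, against 15.7%, and in AgNO3 75, or 30.6%, against 14.0%. At least 1 of the 4 treatments was 1.5-fold lower for 151 members, or 61.6%, against 22.2% of all such genes, and all 4 for 35, or 14.3%, against 5.11%. The members were chosen against the same H2O average that enters these ratios, so the shares are no independent comparison. A reference without H2O gave a smaller decrease. Against the median of the 8 other treatments, the members had a median log2 ratio in BR of -1.05, and 128 of them, or 52.2%, were at least 2-fold lower, against 4.89% of all genes that could be chosen. The rule used BR and these 8 treatments, so nothing is read from this difference either.

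In 6-BA and ABA the members leaned the other way. Their median log2 ratio to H2O was 0.08 in 6-BA and 0.22 in ABA. In ABA 40 members, or 16.3%, were at least 1.5-fold higher than in H2O, against 8.08% of all genes that could be chosen. At least 1.5-fold lower in ABA were 6, or 2.45%, against 6.79%. In 6-BA 33, or 13.5%, were at least 1.5-fold higher, against 2.59%. No member was 1.5-fold lower in 6-BA, where 1.21% of all such genes were. LOC112165947 (NC_037092.1, 58250832 to 58252094) was the most abundant member and an example, at 2293 in H2O, 1074 in BR and 3854 in ABA, with 1409.8 in GA as the lowest of the 8. The auxins stayed near H2O, with medians of -0.02 in NAA and -0.08 in 2,4-D. There 3 and 5 members, or 1.22% and 2.04%, were at least 1.5-fold lower, against 2.44% and 2.86% of all such genes. At least 1.5-fold higher were 4 and 9, or 1.63% and 3.67%, against 2.92% and 3.92%. The rule holds the members within 2-fold of H2O in these 4 treatments, while all such genes include those past that limit. H2O also enters each ratio, so these shares are no independent comparison.

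**Figure D5:**
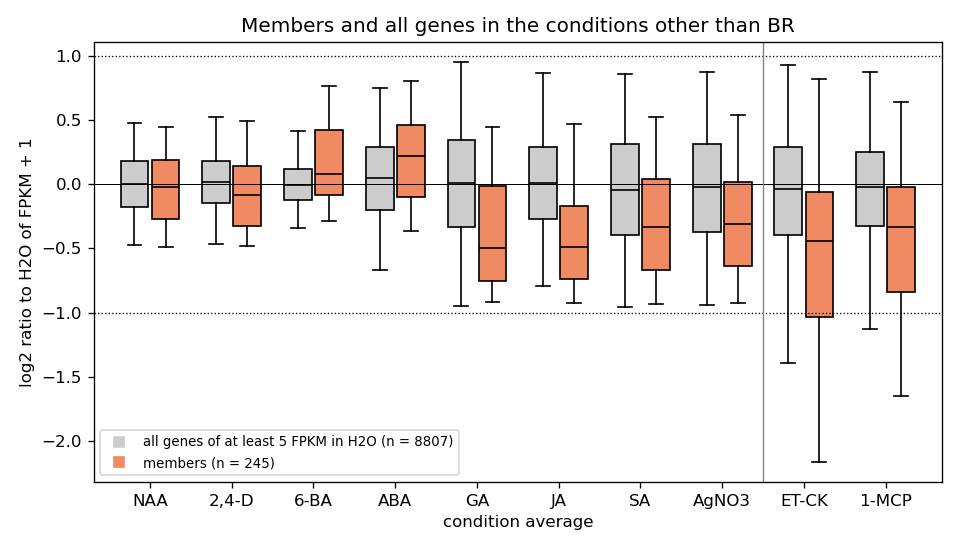
Log2 ratio to H2O of FPKM plus 1 in the 10 conditions other than BR, for all 8807 genes of at least 5 FPKM in H2O (grey) and for the 245 members (orange), with boxes for the quartiles, a line for the median, whiskers from the 5th to the 95th percentile, and dotted lines at the 2-fold limits that the rule sets in solution. The orange boxes sit lower than the grey ones in GA, JA, SA, AgNO3 and both gas conditions, with medians from -0.50 to -0.31, and higher in ABA and 6-BA.

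The gas conditions were not used by the rule, so the members were free to move there. In ET-CK 65 members, or 26.5%, were at least 2-fold lower than in H2O, against 8.74% of all genes that could be chosen, and 9, or 3.67%, were at least 2-fold higher, against 4.33%. In 1-MCP 53 members were at least 2-fold lower and 8 higher, which is 21.6% and 3.27%, against 6.25% and 4.06%. Both gas conditions were at least 2-fold lower for 45 members, or 18.4%, against 4.94% of all such genes. Both were higher for 7, or 2.86%, which is close to the 2.96% of all such genes, and 162 members, or 66.1%, stayed within 2-fold of H2O in both, against 84.5% of all such genes. H2O enters both these ratios and the rule. Against the median of the 8 other treatments in place of H2O, ET-CK was at least 2-fold lower for 54 members, or 22%, against 8.89%. For 1-MCP these were 38 members, or 15.5%, against 5.89%. The rule also bounds these 8 treatments, so this reference gives no independent comparison either. BR itself was the lowest of all 12 conditions for 205 members, or 83.7%, against 13.8% of all such genes. The rule makes BR the lowest of the conditions in solution, so nothing is read from this difference. The other 40 members were lower in ET-CK or 1-MCP than in BR. Gas-held flowers differ from stems in water in the way they were held, and hormone and handling cannot be told apart for them.

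LOC112182836 (NC_037088.1, 58602182 to 58607554) was the extreme case. It was at 20.7 in H2O, 3.22 in BR, from 11.9 in JA to 29.4 in GA, 0.181 in ET-CK and 0.293 in 1-MCP. LOC112192789 (NC_037090.1, 5345752 to 5347577) showed 634 in H2O, 279.5 in BR, 44.0 in ET-CK and 72.5 in 1-MCP. LOC112174624 (NC_037093.1, 39830948 to 39834698) measured 39.0 in H2O, 17.8 in BR, 1.90 in ET-CK and 2.23 in 1-MCP. In these genes the difference between gas and water exceeded that between BR and water. LOC112164942 (NC_037092.1, 70086821 to 70090024) was instead higher in gas than in H2O, at 8.46 in H2O, 3.07 in BR, 34.0 in ET-CK and 27.5 in 1-MCP. LOC112197063 (NC_037091.1, 41816059 to 41820999) reached 23.5 in H2O, 4.06 in BR, 62.0 in ET-CK and 56.9 in 1-MCP. LOC112192789, LOC112174624 and LOC112164942 were named after their gas values were seen.

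1-MCP against ET-CK was the only comparison made that used none of the conditions of the rule. Of the 245 members 6 were at least 2-fold higher in 1-MCP, or 2.45%, against 1.92% of all genes that could be chosen, and 2 were at least 2-fold lower, or 0.816%, against 0.840%. With a pseudocount of 0.1 the members at least 2-fold apart went from 8 to 13, or 5.31%, against 3.61% of all such genes, with 10 higher and 3 lower. The shares at a pseudocount of 1 are near the background. The median log2 ratio was 0.09 for the members and 0.01 for all such genes. LOC112193851 (NC_037088.1, 61755211 to 61756309) had the highest ratio, from 28.0 in ET-CK to 98.9 in 1-MCP, with 27.2 in H2O and 11.0 in BR. LOC112192999 went from 0.665 to 3.63, and LOC112196806 had the next highest ratio of 1-MCP over ET-CK, 1.34 on the log2 scale. LOC112194793 (NC_037090.1, 10671305 to 10674704) had the lowest, from 37.9 in ET-CK to 10.9 in 1-MCP, with 13.9 in H2O and 4.52 in BR. LOC112179671 (NC_037094.1, 10655648 to 10657979) stood at 24 in ET-CK and 10.8 in 1-MCP. LOC112203000 (NC_037092.1, 6288268 to 6288913) had 7.51 and 3.69. With 1 average per condition it cannot be said whether any of these differences exceeds the spread between replicates.

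The most abundant members were lowered by amounts on both sides of the median member. Of the 245, 58 were at 100 FPKM or more in H2O, which is 23.7% against 16.2% of all genes that could be chosen. The share was 24.1% over the 671 genes at least 2-fold lower in BR, so it is not particular to the members. After LOC112165947, the most abundant was LOC112167154 (NC_037092.1, 34397323 to 34400535), at 1043 in H2O, 401 in BR, 597 in SA, its lowest other treatment, 139.7 in ET-CK and 175 in 1-MCP. LOC112173927 (NC_037093.1, 50253551 to 50254195) showed 921 in ET-CK and 843 in 1-MCP, so the gas conditions did not lower it. LOC112180541 (NC_037094.1, 2155823 to 2158748) measured 960.2 in H2O, 391 in BR and from 579.6 in AgNO3 to 1043 in ABA. LOC112201640 (NC_037092.1, 81331278 to 81334540) reached 888 in H2O, 365 in BR, from 622 in JA to 1072 in 6-BA, 286 in ET-CK and 387 in 1-MCP. The log2 ratios of these 5 genes in BR lay between -1.38 and -1.01, against a median of -1.26 over all members.

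Most members, 212 of the 245, were deposited as a single transcript and 33 as several. Of these 33, 20 had at least 2 transcripts of 1 FPKM or more in H2O. In 16 of the 20 every such transcript was lower in BR than in H2O, and in 4 of them by at least 2-fold each. In the other 4 genes a minor transcript was higher in BR while the main one was lower. LOC112179039 (NC_037094.1, 458254 to 466943) changed its main transcript. The transcript that held 84.0% of its FPKM in H2O went from 15.4 to 2.14, while another went from 2.93 to 5.38 and held 71.6% in BR. This change was not confined to BR. The 2 transcripts stood at 4.54 and 22.3 in SA, 2.43 and 20.1 in AgNO3 and 10.1 and 11.5 in GA. In NAA, 2,4-D, 6-BA, ABA and JA the main transcript of H2O stayed the larger. In LOC112196484 (NC_037091.1, 57328803 to 57335577), the main transcript went from 71.6 to 16.9 and 2 minor ones from 2.54 to 8.42 and from 1.91 to 3.50. Its main transcript was also at 29.0 in GA, 24.8 in SA and 21.1 in AgNO3, with the first minor one at 13.2, 19.1 and 19.7. In the other treatments in solution the main one lay between 38.6 in JA and 69.3 in 6-BA. In LOC112167846 the main transcript went from 188 to 64.5 and the minor one from 6.10 to 9.78, and in LOC112170436 they went from 54.0 to 15 and from 3.51 to 4.20. Shifts in the same directions were seen outside BR here too. The main and minor transcripts stood at 84.2 and 15.5 in AgNO3 for LOC112167846, and at 26.2 and 4.46 in JA for LOC112170436. These 4 genes were named after their values were seen. How fragments were assigned between transcripts of a gene was not tested.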

How the data were processed

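The series holds 39 petal libraries in 13 conditions, and Cuffdiff FPKM of 12 conditions were used as deposited by the authors. The authors aligned clean reads to the 'Old Blush' assembly RchiOBHm-V2 by TopHat2 2.1.1 and built transcripts by Cufflinks 2.2.0 and Cuffmerge. The processed files deposited by the authors and used here hold 1 average FPKM per transcript and condition, so they give neither the counts behind a value nor the spread between replicates, and the sources used here do not say how conditions were normalized to each other. The ethylene and air files are identical, and their values were used once, under ET-CK.

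The FPKM of 38170 transcripts were summed over 30208 identifiers, and log2 ratios were taken on FPKM plus 1. Positions are the deposited loci on RchiOBHm-V2. A group joins members at most 100 kb apart, and the 1572 kb stretch spans 3 neighbouring groups. No test was run. The members and lists were chosen with earlier results of these data known. Planned lists by function and promoter motifs could not be used without names or sequences. Named were the 20 members lowest in BR, the 5 most abundant in H2O, the 3 highest and 3 lowest in 1-MCP over ET-CK, adjoining members and the 3 nearest the limit on each side, with others said to be named afterwards. The rule was run on simulated averages with planted members, which checks the code and not the membership of any gene. Alternatives were a pseudocount of 0.1, median scaling, single transcripts, other limits and other references. Python 3.11.15, numpy 2.4.6, pandas 2.3.3 and matplotlib 3.10.9 were used.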

Additional observations from a re-analysis of the deposited data

How the results depend on the processing

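The number of genes lowered by BR alone was 252 with a pseudocount of 0.1, 254 with median scaling, 239 with single transcripts, 308 with a minimum of 1 FPKM or none and 193 with a minimum of 10. Of the 245 genes, 214 were kept with the pseudocount of 0.1 and 211 with median scaling, so about as many genes near a limit entered as left. It was 66 with a BR limit of -1.5, 23 with a limit of 0.5 for the other treatments, 160 with ET-CK as the reference, of which 57 were among the 245, and 148 with the median of the other treatments as the reference for BR, of which 128 were. Stricter limits can only remove genes. The cause of the changes with another reference was not tested. The genes at least 2-fold lower in BR stayed within 1.5 times of 671 under the 3 settings tried. The members at least 2-fold apart between 1-MCP and ET-CK were 8, and 13 with a pseudocount of 0.1, which gives low values larger ratios. All 46 members chosen for naming kept a ratio of -1 or lower in BR with a pseudocount of 0.1, median scaling and single transcripts. Of these, 36 kept it against the median of the other treatments and 31 against ET-CK. The named members include those lowest in BR, so they do not stand for the whole set. Of all 245 members, 128 kept such a ratio against the median of the other treatments and 105 against ET-CK. Against ET-CK 103 were lower by less than 2-fold and 37 were not lower, with a median log2 ratio of -0.89. Among the named members, the ratio against ET-CK turned to 1.84 in LOC112182836, 1.51 in LOC112167154 and 0.35 in LOC112201640. The ET-CK values of these genes were lower than those in BR. No paired analysis was possible because each condition has only its average FPKM, and for the same reason no replicate could be left out. The averages hold no counts, so what depth limits cannot be given.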

Other observations

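Among the 671 genes at least 2-fold lower in BR, 303 were 2-fold lower in no other treatment in solution. Of these, 245 form the set described above and 58 were at least 2-fold higher elsewhere. Of the 671, 72 were at least 2-fold higher in ABA, or 10.7%, against 2.67% of all genes of at least 5 FPKM in H2O, and 21 in 6-BA, or 3.13%, against 0.670%. In the other treatments these were 15 in JA, 11 in AgNO3, 10 in 2,4-D, 9 in SA, 8 in GA and 2 in NAA, which is 2.24%, 1.64%, 1.49%, 1.34%, 1.19% and 0.298%, against 3.80%, 3.64%, 1.10%, 3.35%, 4.47% and 0.443%. All these ratios share the H2O average. A further 91 of the 671 missed the set only because they were at least 2-fold lower in a single other treatment, which was JA for 40, GA for 27, SA for 12, AgNO3 for 10, ABA for 1 and 6-BA for 1. No gene was at least 2-fold lower in BR and in all 8 other treatments. LOC112197995, on NC_037091.1 between the loci of the first stretch from 49510052 to 49510991, was at 2289 FPKM in H2O and 394 in BR and missed the set because it was at least 2-fold lower in 1 other treatment. It was named after its values were seen.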
